A study of Mus musculus with 7 samples.

Results

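The nuclear genes of oxidative phosphorylation (OXPHOS) were examined for Oct1 and Oct4 peaks in mouse embryonic stem cells (ESCs) and in their mesodermal derivatives. Members were taken by symbol from the protein-coding genes of the RefSeq table for GRCm38.p6. They were the genes starting with Nduf, Uqcr, Atp5 or Cox4 to Cox8, together with Sdha, Sdhb, Sdhc, Sdhd, Cyc1 and Cycs, without Ndufa4l2. This gave 97 of 21887 protein-coding genes. Complex I held 40 of them, complex I assembly factors (Ndufaf genes) 8, complex II 4, complex III 9, complex IV 18 and ATP synthase 17, and Cycs encodes cytochrome c. Grouping followed the symbol, so Ndufa4, whose protein is now placed in complex IV, was counted with complex I.

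All libraries came from parental cells, a genotype label that carries no deletion, and the labels do not say whether the line was a single clone. Chromatin immunoprecipitation with sequencing (ChIP-seq) gave 4 peak lists, each from 1 library: Oct1 and Oct4 each in undifferentiated ESCs, and Oct1 on days 3 and 6 of mesodermal differentiation. The whole differentiation protocol comprised 2 days with Bmp4 in N2B27 medium, followed by 4 days in a DMEM-based medium containing LDN-193189 and Rspo3. Cells of the day 3 library were thus taken before its end. The 3 input libraries, and the knockout and retinoic acid arms named in the series' design, were not analysed here. With 1 library per group there was no replicate error, no test between groups was possible, and intervals cover the counting of genes only.

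Oxidative phosphorylation passes electrons from NADH and succinate through complexes I to IV to oxygen, and ATP synthase uses the resulting proton gradient to make ATP. Most subunits are encoded in the nucleus and imported into mitochondria, and the core of several complexes is completed by subunits made from mitochondrial DNA. Promoters of these genes are known for sites of NRF1 and of ETS factors such as GABP. Oct1 (gene Pou2f1) is a widely expressed POU-domain factor that binds octamer DNA and has been linked to metabolic genes, and Oct4 (gene Pou5f1) is its pluripotency-specific relative.

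At day 6, Oct1 peaks were listed at the ends of many OXPHOS genes, and in the other lists at few of them. A gene-end peak is one whose midpoint lies within 1 kb of either end of the annotated gene. At day 6, 47 of 97 members (48.5%, exact Clopper-Pearson 95% interval 38.2 to 58.8) had such a peak, against 29.4% of all protein-coding genes. At day 3 the count was 15 (15.5%, 8.92 to 24.2), close to the 14.0% of all genes. In ESCs, Oct1 peaks lay at 12 members (12.4%, 6.56 to 20.6; all genes 8.52%) and Oct4 peaks also at 12 (12.4%, 6.56 to 20.6; all genes 8.91%). In these 3 lists the members' interval held the share of all genes, and at day 6 it lay above it. For ESC Oct1 this depended on the window, since at 500 bp the members' share was still 12.4% and that of all genes 5.89%.

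The lists differ in length, with 17709 peaks for ESC Oct1, 22817 for ESC Oct4, 4867 at day 3 and 7758 at day 6, and the labels state 100 M read pairs per library as the sequencing scale. The reads that each list rests on are not given in the sources used here. The day 6 share of members was 1.65 times that of all genes, and between 1.51 and 1.86 times it under the other windows, thresholds and gene selections tried. The ESC ratios varied more with the settings, and some exceeded every day 6 ratio. For ESC Oct1 the ratio was 1.46 at 1 kb, 1.07 at 5 kb, 2.11 at 500 bp and 2.17 for gene starts only. For ESC Oct4 it was 1.39 at 1 kb, 0.888 at 5 kb, 1.96 at 500 bp and 2.93 with the list shortened to the length of the day 3 list, where it rests on 7 members.

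**Figure D1:**
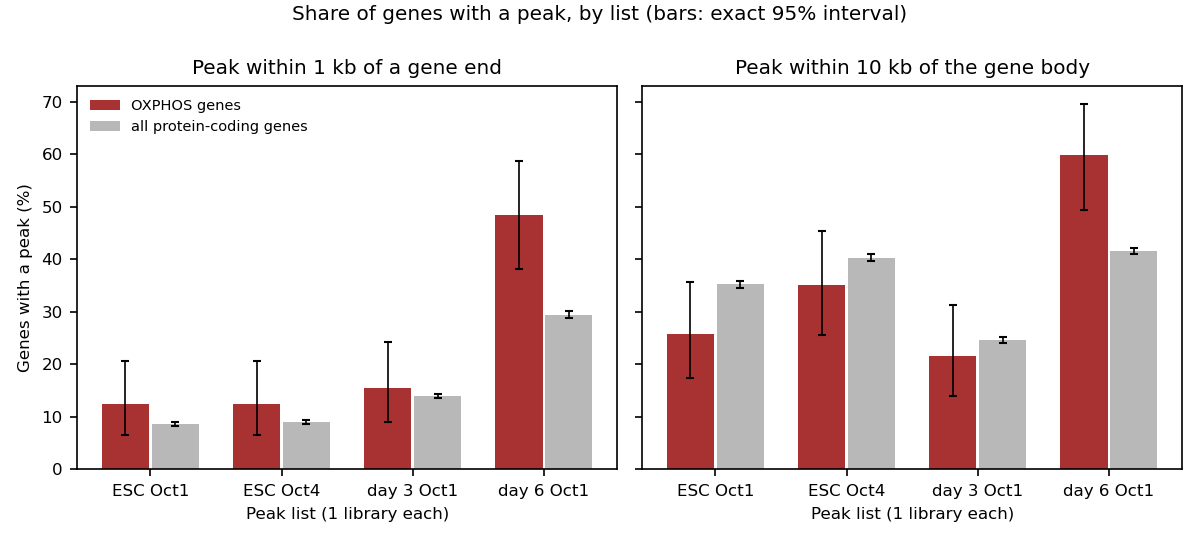
Share of genes (%, vertical axis) with a peak within 1 kb of a gene end (left) or within 10 kb of the gene body (right) in each list, for the 97 OXPHOS genes and all 21887 protein-coding genes. Lines are exact 95% intervals for counting; only at day 6 do the OXPHOS bars stand above the grey bars by more than the interval (48.5% against 29.4% at gene ends).

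Peaks sat at gene starts rather than at the far ends. Strand was known for 43 of the 47 members with a day 6 gene-end peak, and in 43 of 43 the highest peak was nearer to the start. Over all protein-coding genes the share was 96.1%. The median distance from peak midpoint to the gene end was 77.5 bp for members at day 6 (109.5 bp for all genes), and 43 members (91.5%) had it within 250 bp, against 78.1% of all genes with a day 6 gene-end peak. At day 3, 13 of 14 members of known strand (92.9%) had the peak at the start, near the 93.5% of all genes. The median distance was 79.5 bp (134 bp for all genes). ESC Oct1 peaks lay at the start in 9 of 10 members, against 66.3% of all genes. ESC Oct4 peaks did so in 6 of 9, against 49.2%.

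**Figure D2:**
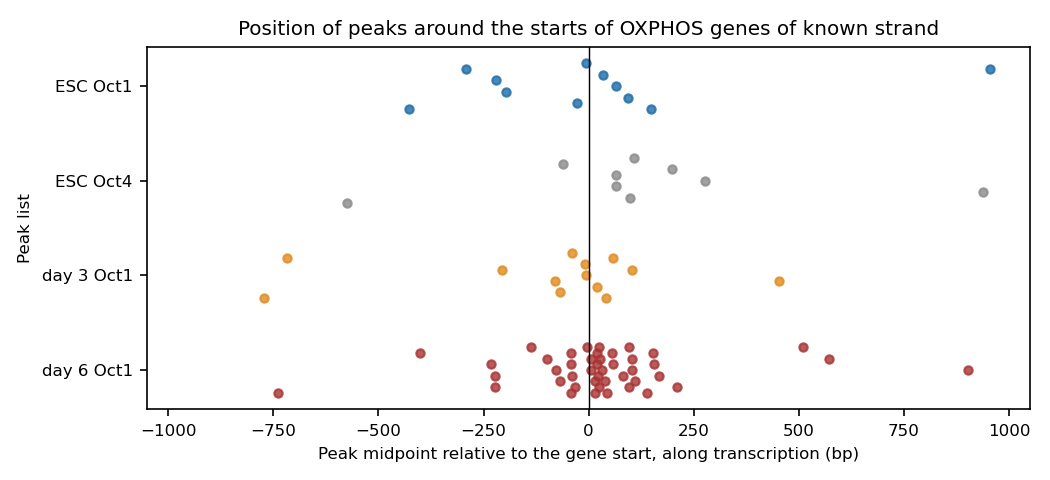
Position of gene-end peaks (midpoint in bp from the gene start, horizontal axis; negative values lie upstream) for OXPHOS genes of known strand, by list. Each point is 1 peak, and peaks more than 1000 bp from the start are not drawn. Day 6 points crowd around the start, whereas ESC points are few and more spread.

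Many of these peaks lie close to a neighbouring gene as well. At day 6, the highest gene-end peak of 26 of 47 members (55.3%) also lay within 1 kb of an end of another gene, compared with 43.7% of all genes with such a peak, and in 11 members the other gene was nearer. No peak was shared by a pair of members. Which end of the neighbour lies there was not examined. For such genes, binding at the OXPHOS gene and at its neighbour cannot be told apart from a peak list.

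Complex I, the NADH dehydrogenase that opens the chain, is the largest group here. At day 6, 21 of its 40 subunit genes (52.5%, all genes 29.4%) had a gene-end peak. At day 3 the count was 9 (22.5%, all genes 14.0%), and in the ESC Oct1 and ESC Oct4 lists it was 6 each (15.0%, all genes 8.52% and 8.91%). The 7 catalytic core genes had 4 day 6 peaks and the 33 accessory genes 17, shares of 57.1% and 51.5%. Scores are whole numbers with no unit given by the authors, and are therefore quoted as percentiles within their own list. The highest complex I peak at day 6 was at the start of Ndufa10 (gene ID 67273), an accessory subunit, at chromosome 1, 92473481 to 92474120, with percentile 94.0. Its day 3 peak had percentile 45.9, and neither ESC list had one. Ndufa6, another accessory subunit, followed with percentile 89.6 at day 6 and 76.2 at day 3 (chromosome 15, 82354031 to 82354560). Ndufb4 reached 88.1 at day 6 and 70.3 at day 3 (chromosome 16, 37654121 to 37654700). All 3 lacked an ESC peak at their ends. Ndufa13 reached 85.1 at day 6, but its peak lay 738 bp upstream of the gene start and 223 bp from Tssk6.

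Among the complex I core genes, Ndufs8, which carries iron-sulphur clusters, had ESC Oct1 (percentile 56.7), day 3 (33.0) and day 6 (67.7) peaks. Ndufv1 (65.3) and Ndufv2 (58.7), of the NADH-oxidising tip, had day 6 peaks alone. Ndufs1, the largest subunit, had peaks in both ESC lists (80.5 for Oct1 and 95.1 for Oct4) and a low one at day 6 (24.7). Each of these also lay within 1 kb of Eef1b2. Ndufs3 was the one member with a day 3 peak (22.0) and no day 6 gene-end peak. Ndufs7 had only an ESC Oct4 peak, of percentile 7.55, at its far end, 769 bp from it.

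Assembly factors of complex I, which help to build it without staying in it, had no gene-end peak in ESCs or at day 3, lists in which 8.52% to 14.0% of all genes had one, so that 0 of 8 is near the background. At day 6, 4 of 8 had one (all genes 29.4%), namely Ndufaf5 (58.3), Ndufaf8 (46.2), Ndufaf3 (41.5) and Ndufaf4 (33.2).

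Complex II, succinate dehydrogenase, has no mitochondrially encoded subunit, and 3 of its 4 genes had a day 6 gene-end peak (all genes 29.4%). Sdhb, the iron-sulphur subunit, had percentile 86.8 at day 6 (chromosome 4, 140960971 to 140961620). Sdha, the flavoprotein subunit, had 77.8 (chromosome 13, 74349941 to 74350530), and its midpoint lay 82 bp from an end of Ccdc127. Sdhd, a membrane anchor, had 33.0 at its start at day 6, near Timm8b, and a separate day 3 peak of 14.7 near its far end. Sdhc, the other anchor, had only an ESC Oct4 peak of percentile 23.6, 474 bp from one end. Sdha and Sdhb had no peak at their ends in the other 3 lists.

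Complex III, which passes electrons to cytochrome c, had 3 of 9 members with a day 6 gene-end peak (33.3%), near the 29.4% of all genes. Uqcrq, a small subunit, stood high in most lists, with percentile 96.6 for ESC Oct1, 67.1 for ESC Oct4, 88.4 at day 3 and 91.4 at day 6 (chromosome 11, 53430581 to 53431450 at day 6). The peak midpoint lay 185 bp from Uqcrq and 242 bp from Gdf9 at day 6. Uqcr11 had a day 6 peak of 70.8, and Uqcrc1, a core protein, had 42.4 at day 6 and 49.6 at day 3. Cyc1, Uqcrfs1, Uqcrb, Uqcrc2, Uqcrh and Uqcr10 had none in any list. Cycs, the electron carrier between complexes III and IV, had a day 6 peak of 40.0, with its midpoint 67 bp from the start of Cycs and 8 bp from a long noncoding RNA gene.

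In ATP synthase, 9 of 17 members had a day 6 gene-end peak (52.9%, all genes 29.4%). The counts of 2 at day 3 (11.8%, all genes 14.0%), 2 for ESC Oct1 (11.8%, all genes 8.52%) and 1 for ESC Oct4 (5.88%, all genes 8.91%) were near the background. The rotor's c subunit is encoded by a group of genes with different targeting peptides, and these differed. Atp5g1 carried an Oct1 peak of percentile 96.0 in ESCs, 60.7 at day 3 and 68.7 at day 6. Atp5g2 had them at day 3 (79.4) and day 6 (76.4) only. Atp5g3 had no gene-end peak in any list. Of the catalytic head, Atp5c1 (gamma subunit) had a day 6 peak of 72.2 and Atp5b (beta subunit) one of 18.1, while Atp5a1 had none. Atp5o, of the stalk, had 67.0 at day 6. Atp5k was the reverse case, with ESC Oct1 (76.4) and ESC Oct4 (92.9) peaks and none at day 3 or day 6.

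Complex IV, cytochrome c oxidase, had 6 of 18 members with a day 6 gene-end peak (33.3%), near the 29.4% of all genes. The highest was at Cox4i1 (92.0, chromosome 8, 120667821 to 120668530), followed by Cox6a1 (74.4), Cox8a (71.1) and Cox5b (67.2). The midpoint of the Cox4i1 peak lay 50 bp from an end of Cox4i1 and 34 bp from an end of Gm27021, which was nearer. Several complex IV subunits exist as a ubiquitous form and a form restricted to muscle, testis or other tissues. Of the 7 tissue-restricted genes, 3 had gene-end peaks in both ESC lists (all genes 8.52% for Oct1 and 8.91% for Oct4) and 1 at day 6 (all genes 29.4%). Of their 6 ubiquitous partners, none had a gene-end peak in either ESC list and 3 did at day 6. These counts are small and the difference was not tested.

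Cox7a1, the heart and muscle form, had ESC Oct1 (93.5) and ESC Oct4 (94.7) peaks at its start and no later gene-end peak, and Cox7a2 had none in any list. Cox8b, also a muscle form, had ESC Oct1 (46.6) and ESC Oct4 (75.7) peaks alone, whereas Cox8a had its peak at day 6 alone. Cox6b2, the testis form, had peaks in all 4 lists, with percentile 85.2 for ESC Oct1, 78.6 for ESC Oct4, 54.4 at day 3 and 34.0 at day 6. The higher of its ESC peaks lay nearer to the far end of this short gene. Cox6b1 had none. For the Cox4 and Cox6a pairs the ubiquitous Cox4i1 and Cox6a1 had a day 6 peak, and Cox4i2 and Cox6a2 had none. Cox7b, Cox7b2 and Cox8c had no gene-end peak.

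**Figure D3:**
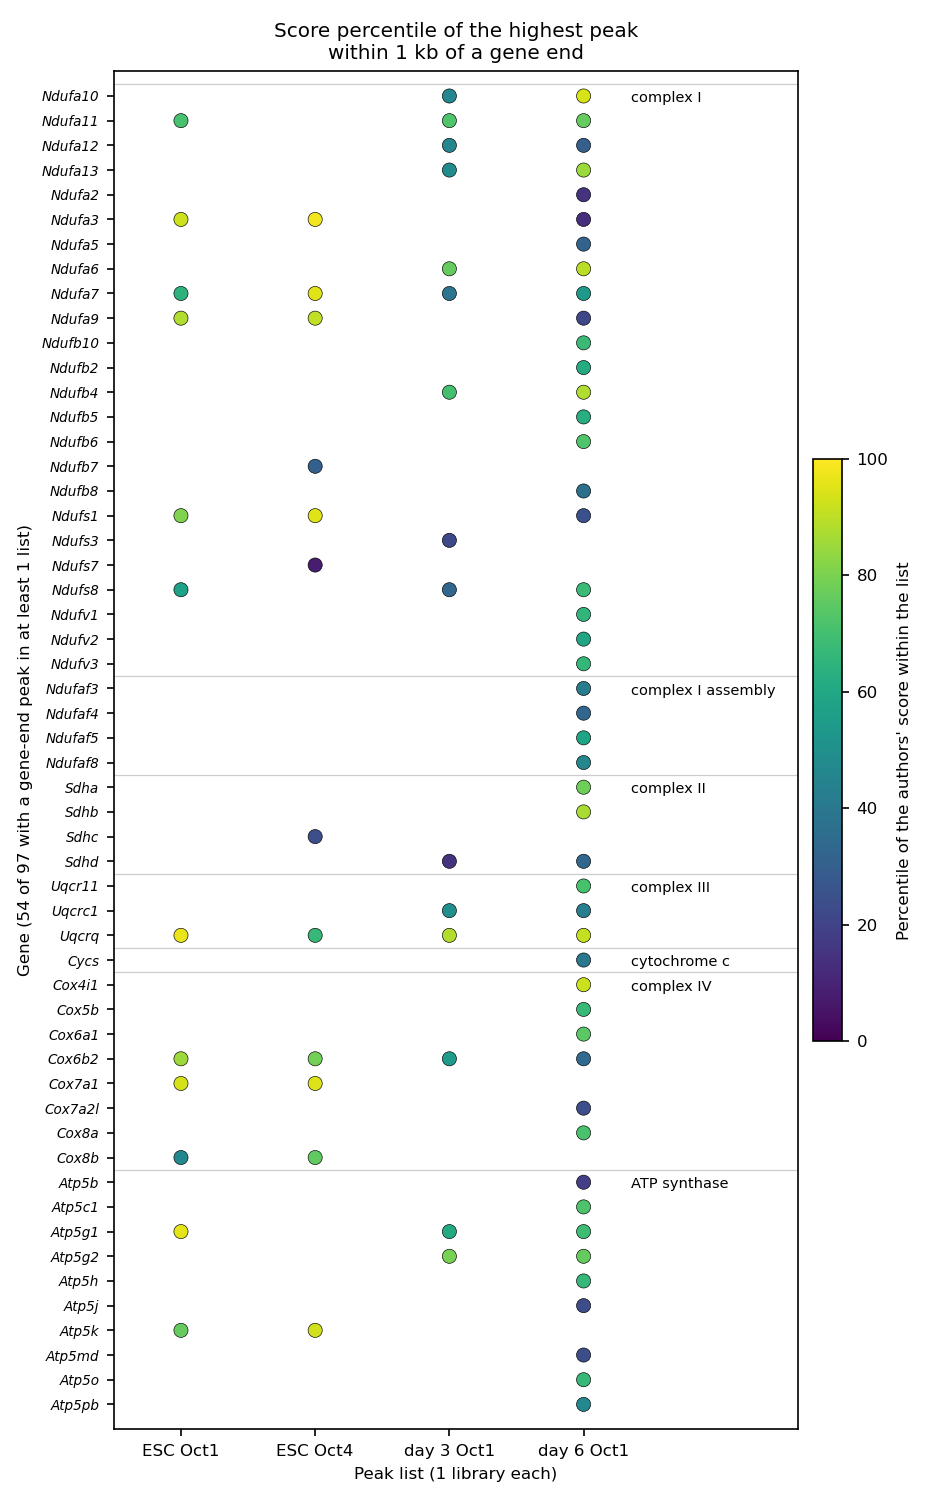
Percentile of the authors' score (colour, 0 to 100) of the highest gene-end peak, for the 54 OXPHOS genes (rows, by complex) with such a peak in at least 1 list (columns). Empty positions have no gene-end peak. The day 6 column is the fullest with 47 genes, and the 3 genes filled across all columns are Ndufa7, Uqcrq and Cox6b2.

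Seen across the lists, 43 members (44.3%) had no gene-end peak anywhere, against 62.0% of all genes, and 30 (30.9%) had one at day 6 only, against 15.3%. A further 8 had one at day 3 and day 6 alone (8.25%, all genes 9.29%). Atp5g1, Ndufa11 and Ndufs8 had a peak in each Oct1 list without Oct4 (3 members, 3.09%, all genes 1.20%). The 3 members on chromosome X, Ndufa1, Ndufb11 and Cox7b, were among those with none.

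Day 3 peaks almost always recurred at day 6. Of the 15 members with a day 3 gene-end peak, 14 (93.3%) had one at day 6, compared with 86.1% over all genes. The peaks overlapped in 2603 of the 2634 protein-coding genes with both, and in 13 of these 14 members. Sdhd was the exception, with its peaks at opposite ends. Members with a gene-end peak at both times made up 14.4% of the 97, against 12.0% of all genes, a share near the background. The median day 6 percentile was 72.5 for members that also had a day 3 peak and 58.7 for the 33 that did not. Over all genes the medians were 74.7 and 46.6, in the same direction and further apart.

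The ESC set was small and shared between both factors. Of the 12 members with an ESC Oct1 gene-end peak, 9 also had an ESC Oct4 one. That is 75% of either list, against 58.7% of the Oct1 and 56.2% of the Oct4 genes over all genes. The peaks overlapped in all 9 members, and over all genes in 1035 of the 1095 with both, so this overlap is not particular to the members. Over the 12 members of each list, the median percentile was 82.9 for ESC Oct1 (range 46.6 to 96.6, median of all genes with a gene-end peak 72.9) and 84.5 for ESC Oct4 (7.55 to 98.4, all genes 59.1). The lowest in the Oct4 list were Ndufs7, Sdhc and Ndufb7, which had no other gene-end peak. At day 3 and day 6 the members' medians were 49.6 and 62.5, against 61.4 and 58.3.

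Ndufa3, an accessory subunit of complex I, had the highest ESC Oct4 percentile among them. Its start carried peaks of percentile 92.2 for ESC Oct1 and 98.4 for ESC Oct4 (chromosome 7, 3617171 to 3617920 for Oct4) and of 12.9 for Oct1 at day 6. Ndufa9 showed the same order, with 88.0, 90.3 and 21.2. Ndufa7, whose peaks lay 4 to 52 bp from an end of Rps28, had 64.3 for ESC Oct1, 95.3 for ESC Oct4, 39.0 at day 3 and 53.6 at day 6. Ndufa11 reached 70.8 for ESC Oct1, 72.5 at day 3 and 76.4 at day 6, with Vmac nearer in each case. Ndufb7 had only an ESC Oct4 peak of 30.4, near its far end.

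In bulk chromatin a peak present in some cells only cannot be told apart from a weaker one in all cells. The median day 6 percentile was 29.4 (range 12.9 to 91.4) over the 6 members with an ESC Oct4 gene-end peak and 66.5 (14.5 to 94.0) over the 41 without. The ranges overlap almost wholly, and the difference was not tested. Over all genes the medians were closer, at 53.4 and 58.8. For ESC Oct1 the members' medians were 53.6 with and 63.9 without a gene-end peak in that list, and those of all genes lay the other way, at 61.4 and 57.9. A day 6 gene-end peak was listed for 9 of the 12 members with an ESC Oct1 one and for 44.7% of those without, against 42.8% and 28.2% over all genes. For ESC Oct4 it was 6 of 12 and 48.2%, against 36.5% and 28.8%.

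A wider window, the gene body with 10 kb on either side, gave shares whose interval held that of all genes in every list but day 6. Here 25 members (25.8%, interval 17.4 to 35.7) had an ESC Oct1 peak and 34 (35.1%, 25.6 to 45.4) an ESC Oct4 peak, against 35.2% and 40.2% of all genes. At day 3 the count was 21 (21.6%, 13.9 to 31.2, all genes 24.6%) and at day 6 it was 58 (59.8%, 49.3 to 69.6, all genes 41.5%). OXPHOS genes are short, with a median length of 7131 bp against 17169 bp, so their windows are smaller. With 5 kb on either side, the ESC Oct4 share of 23.7% (15.7 to 33.4) lay below the 34.0% of all genes, and the ESC Oct1 share was 20.6% (13.1 to 30.0, all genes 29.5%). Among genes of at most 20 kb, a limit set after the data were seen, the members' shares were 26.5% for ESC Oct1, 33.7% for ESC Oct4, 21.7% at day 3 and 59.0% at day 6. The shares of all such genes were 28.3%, 33.7%, 20.7% and 36.1%. With and without this limit, the day 6 share at 10 kb was the one away from the background. Members with a peak in this window but none at an end numbered 13 for ESC Oct1 (13.4%, all genes 26.7%), 22 for ESC Oct4 (22.7%, all genes 31.3%), 6 at day 3 (6.19%, all genes 10.6%) and 11 at day 6 (11.3%, all genes 12.1%). The peak lay inside the gene in 2, 4, 0 and 4 of them. No peak within 10 kb was listed anywhere for 26 of the 97 members (26.8%, all genes 36.5%).

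Promoter composition moves with the day 6 peaks. RefSeq promoter sequences, which run from 250 bases before to 50 bases after the gene's start, were matched for 79 of the 97 members and 17492 genes in all. Median GC content was 58.5% for the members and 56.3% for all genes, and the median number of CG dinucleotides was 20 and 13. Over all genes, the share with a day 6 gene-end peak went from 3.31% in the lowest of 5 classes of nearly equal size of GC content to 60.1% in the highest. Within these classes the members' shares were, in the same order, 0 of 4, 4 of 15 (26.7%, all genes 11.4%), 18 of 27 (66.7%, all genes 29.4%), 16 of 27 (59.3%, all genes 47.7%) and 5 of 6 (83.3%). The members' day 6 share was above that of all genes in 4 of the 5 classes, although several hold few members. Whether the genes are active in these cells was not measured, and its part in the result was not tested.

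**Figure D4:**
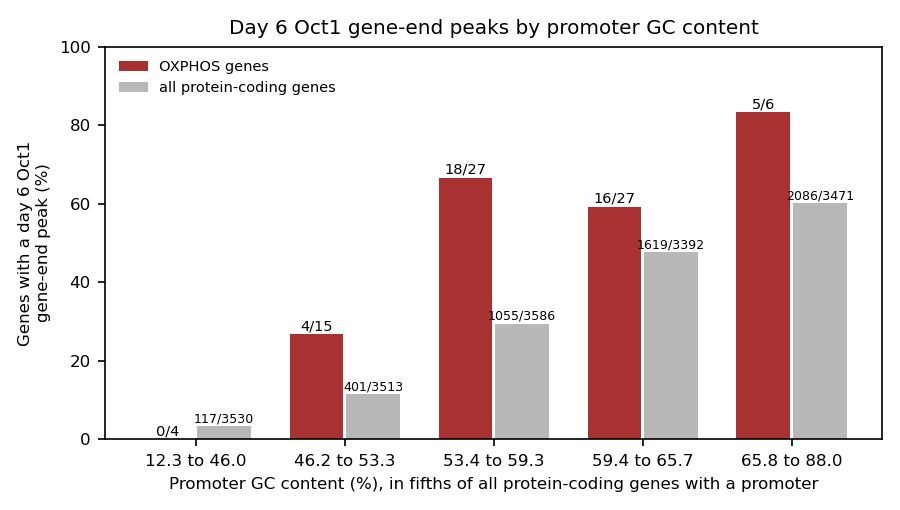
Share of genes with a day 6 Oct1 gene-end peak (%, vertical axis) in 5 classes of promoter GC content (horizontal axis, %), for OXPHOS genes and all protein-coding genes with a promoter sequence. Numbers above the bars are genes with a peak over genes in the class. The widest gap is in the middle class, 66.7% against 29.4%.

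The letters in these promoters were then searched on both strands for 8 motifs. The octamer ATGCAAAT was found in 1 of 79 members (1.27%, all genes 1.90%), Ndufs4, which had no gene-end peak. It was in none of the 10 members with an ESC Oct1 gene-end peak and a promoter sequence, against 4.90% of all genes with such a peak, and in none of the 43 at day 6 (all genes 1.69%). The half-site palindrome ATGCAT was in 5 members (6.33%, all genes 4.99%). Of these, 4 had a day 6 gene-end peak, which is 9.30% of the 43 members with such a peak and a sequence, against 2.80% over all genes. In none of the 4 did the letters lie inside that peak. In Ndufa3 they lay inside both ESC peaks. Peaks are wider than this window, so letters elsewhere under them were not searched.

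Of the motifs known for OXPHOS promoters, those of NRF1, ETS factors and YY1 were found in a larger share of members than of all genes when both strands were searched. GCATGCGC, a core of the NRF1 site, was in 13 members (16.5%, all genes 3.94%). CCGGAAG, an ETS site, was in 19 (24.1%, all genes 12.9%), but on the strand of the gene alone in 7 (8.86%, all genes 7.11%). AAGATGG, a YY1 site, was in 12 (15.2%, all genes 7.18%). GGGCGG, an SP1 site, was in 36 (45.6%, all genes 49.2%), CCAAT in 35 (44.3%, 42.3%) and TATAAA in 8 (10.1%, 14.8%). Of the 13 members with the NRF1 letters, 10 had a day 6 gene-end peak, a share of 76.9% against 61.0% of all genes with these letters. In all 10 the letters lay inside that peak. Whether this differs from other letters at the same distances from the start was not tested. Among members with a day 6 peak 23.3% held the NRF1 letters, against 7.96% of all genes with one. Since the shares without regard to peaks were 16.5% and 3.94%, this mostly restates them. The SP1 letters were held by 58.1% of members with a day 6 peak, against 79.2% of all genes with one.

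Bases before the start are shown for members on which these results turn, as given by RefSeq for GRCm38.p6, reading 5′ to 3′ along the gene. Capitals mark GCATGCGC on either strand, which overlap with each other in GCGCATGCGC. Atp5g2, Cox6a1, Sdhb and Ndufa6 have a day 6 start peak and the NRF1 letters. Atp5g1 (187 bases, ending at the outermost annotated start) had a peak in each Oct1 list, and Cox7a1 had gene-end peaks in the ESC lists alone. Neither of the latter holds the NRF1 letters, the octamer or ATGCAT in the stretch shown.
Atp5g2 (chr15:102671048-102671297, minus strand): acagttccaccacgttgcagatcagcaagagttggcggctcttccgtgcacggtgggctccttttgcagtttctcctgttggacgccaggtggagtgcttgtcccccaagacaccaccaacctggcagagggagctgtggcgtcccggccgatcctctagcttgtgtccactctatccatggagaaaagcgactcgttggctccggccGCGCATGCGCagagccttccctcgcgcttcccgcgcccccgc
Cox6a1 (chr5:115348959-115349208, minus strand): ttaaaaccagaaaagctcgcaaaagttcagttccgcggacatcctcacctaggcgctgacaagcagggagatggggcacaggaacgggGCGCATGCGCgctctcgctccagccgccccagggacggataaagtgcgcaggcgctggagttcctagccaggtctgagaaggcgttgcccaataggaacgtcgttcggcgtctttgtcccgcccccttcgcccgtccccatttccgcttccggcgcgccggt
Sdhb (chr4:140961021-140961270, plus strand): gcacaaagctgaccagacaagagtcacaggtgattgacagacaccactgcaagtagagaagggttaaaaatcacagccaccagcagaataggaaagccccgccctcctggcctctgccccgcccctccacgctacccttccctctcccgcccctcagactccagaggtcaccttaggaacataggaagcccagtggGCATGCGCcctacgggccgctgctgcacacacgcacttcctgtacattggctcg
Ndufa6 (chr15:82354292-82354541, minus strand): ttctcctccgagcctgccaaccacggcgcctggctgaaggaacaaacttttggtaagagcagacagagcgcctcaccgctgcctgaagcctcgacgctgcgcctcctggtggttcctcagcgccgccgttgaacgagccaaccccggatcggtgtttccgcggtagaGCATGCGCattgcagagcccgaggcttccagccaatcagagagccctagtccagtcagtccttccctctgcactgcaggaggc
Atp5g1 (chr11:96075695-96075881, minus strand): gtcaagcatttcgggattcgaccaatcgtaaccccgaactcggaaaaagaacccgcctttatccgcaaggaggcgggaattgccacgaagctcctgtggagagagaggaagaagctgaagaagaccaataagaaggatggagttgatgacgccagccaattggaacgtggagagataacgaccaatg
Cox7a1 (chr7:30183921-30184170, plus strand): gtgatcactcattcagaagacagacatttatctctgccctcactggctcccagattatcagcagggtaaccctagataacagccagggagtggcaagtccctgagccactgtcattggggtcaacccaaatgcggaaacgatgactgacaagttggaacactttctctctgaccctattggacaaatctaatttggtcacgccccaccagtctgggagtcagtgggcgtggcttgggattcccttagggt

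Genes that build or regulate the system without matching the symbol rule were counted in the same way. Of 36 other assembly factors, 18 (50%) had a day 6 gene-end peak, against 29.4% of all genes. The other lists had fewer, with 4 at day 3 (11.1%, all genes 14.0%), 3 for ESC Oct1 (8.33%, all genes 8.52%) and 5 for ESC Oct4 (13.9%, all genes 8.91%). The highest at day 6 were Ttc19, a complex III factor (88.9, and 23.5 at day 3), Tmem126b, a complex I factor (86.6), Foxred1 (75.7), Ecsit (75.0), Sdhaf3 (74.0) and Uqcc2 (72.0). The Ecsit peak midpoint lay 285 bp from the far end of Ecsit and 149 bp from Gm16845. ESC Oct1 peaks lay at Cox10 (12.2), Cox14 (43.7) and Cox19 (15.4). ESC Oct4 peaks lay at Cox19 (75.3), Uqcc1 (59.1), Uqcc3 (41.4), Timmdc1 (21.4) and Sco2 (0.0898). These percentiles were low to middling but for Cox19 with Oct4.

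Of 15 regulators of mitochondrial genes or of mitochondrial DNA, 9 (60.0%, all genes 29.4%) had a day 6 gene-end peak, 3 a day 3 peak (20%, all genes 14.0%), 1 an ESC Oct1 peak (6.67%, all genes 8.52%) and none an ESC Oct4 peak (all genes 8.91%). The counts outside day 6 are near the background. Esrra, the oestrogen-related receptor alpha that activates OXPHOS genes, stood far above the rest. Its start carried Oct1 peaks with percentile 99.9 in ESCs (rank 19 of 17709, chromosome 19, 6921591 to 6922630), 99.7 at day 3 (rank 13 of 4867) and 99.8 at day 6 (rank 19 of 7758). The midpoint lay 63 bp from the start of Esrra and 316 bp from Catsperz in ESCs. Tfb2m (64.5), Tfam (61.2) and Tfb1m (58.8), which serve mitochondrial transcription, had day 6 peaks alone. The Tfb2m peak midpoint lay 161 bp from Tfb2m and 22 bp from Cnst. Ppargc1b (60.4) and Yy1 (53.2) had day 6 peaks and also day 3 ones (68.6 and 36.5). Nrf1 had a day 6 peak of 33.0. Gabpa, which encodes the DNA-binding subunit of the ETS factor GABP, shared its day 6 peak with the member Atp5j (22.8). The midpoint lay 395 bp from Gabpa and 572 bp from Atp5j.

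Other housekeeping groups gave day 6 shares on either side of that of OXPHOS genes, and no difference between groups was tested. Gene-end peaks at day 6 were listed for 31 of 78 mitochondrial ribosomal protein genes (39.7%, interval 28.8 to 51.5). For cytosolic ribosomal protein genes it was 48 of 84 (57.1%, 45.9 to 67.9). These are set beside 48.5% of OXPHOS genes and 29.4% of all genes, a share that the mitochondrial ribosomal interval holds. At day 3 the shares were 24.4% and 20.2%, against 15.5% for OXPHOS genes and 14.0% for all genes. For ESC Oct1 they were 6.41% and 14.3% (OXPHOS genes 12.4%, all genes 8.52%). For ESC Oct4 they were 8.97% and 16.7% (OXPHOS genes 12.4%, all genes 8.91%).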

How the data were processed

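Peak lists of 4 ChIP-seq libraries were used. Per the submitters' processing notes, reads were handled with Novoalign 3.8.2 on build mm10, which has the coordinates of GRCm38; the peak caller, its threshold and its control are not given in the sources used here. Each deposited list gives 1 score per peak, made by the authors and without a unit, and it was used only to rank or halve a list. Per the labels, chromatin was crosslinked with 1% formaldehyde and sequenced as paired reads of 50 bp. The labels state 100 M read pairs per library; the reads behind each list are not given in the sources used here.

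Genes came from the RefSeq table of GRCm38.p6, chromosomes 1 to 19, X and Y. Gene ends are the outermost annotated positions, and strand was taken from the promoter table where listed. Gene-end peaks had their midpoint within 1 kb of either end. The wider rule asked for at least 1 bp of overlap with the gene body extended by 10 kb. Percentiles are mid-ranks within a list, for the highest-scoring gene-end peak of a gene. Python 3.11.15, pandas 2.3.3, numpy 2.4.6, scipy 1.17.1 and matplotlib 3.10.9 were used. Gene matching was tested on simulated peaks, where 200 of 200 planted genes were recovered among 705 genes of chromosome 19, and against bedtools 2.31.1.

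The members, gene lists and motifs were chosen with earlier results of these data known. Genes were named by rule: every member with an ESC gene-end peak, up to 4 per complex with the highest day 6 percentile, members with a day 3 and no day 6 peak, the isoform pairs, complex II and cytochrome c, and the leading genes of the other lists. The ribosomal comparisons, Ndufv1, Ndufv2, Atp5b and other genes named for lack of a peak or for a shared peak were added after their values were seen. Alternatives were other windows, thresholds, gene selections, overlaps and strands.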

Additional observations from a re-analysis of the deposited data

How the results depend on the processing

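Altogether 21 results were recomputed, giving 77 alternative values, of which 60 stayed within 1.5 times the count or within the interval of the median and 17 did not. Windows of 5 kb at gene ends raised the members with an ESC Oct1 peak to 20 (20.6%, all genes 19.2%) and with an ESC Oct4 peak to 20 (20.6%, 23.2%), and a window of 20 kb raised ESC Oct1 to 41 (42.3%, all genes 44.2%). Keeping the 50% of peaks with the higher scores left 7 members at gene ends at day 3, 28 at day 6 and 6 at both (6.19%, all genes 7.15%), and within 10 kb 20 for ESC Oct4 (20.6%, all genes 26.7%), 10 at day 3 (10.3%, 15.0%) and 37 at day 6 (38.1%, 24.9%). At day 6 the 28 members were 28.9%, against 17.4% of all genes, while the 7 at day 3 were 7.22%, below the 9.17% of all genes. Lists shortened to 4867 peaks left 7 members at gene ends for ESC Oct4 (7.22%, all genes 2.46%), and within 10 kb 15 for ESC Oct1 (15.5%, all genes 16.3%) and 13 for ESC Oct4 (13.4%, 14.7%). Counting gene starts only left 7 of 79 members for ESC Oct4 (8.86%, all genes 4.53%). On the strand of the gene alone, the octamer was found in 0 members (all genes 1.00%), ETS in 7 (8.86%, all genes 7.11%), CCAAT in 20 (25.3%, 24.5%) and TATA in 3 (3.8%, 9.82%). Fewer peaks, wider windows and fewer strands change counts by construction. The limit on gene length was the one alternative chosen after the data were seen. No replicate could be left out and no paired analysis was possible because each group had 1 library.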

Other observations

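Of the 8 motifs searched, TATAAA stood out among members with an ESC Oct4 gene-end peak. It was in the promoters of 5 of 9 such members with a sequence (Ndufa3, Ndufa7, Cox8b, Ndufb7 and Ndufs7), against 9.02% of all genes with an ESC Oct4 gene-end peak and 10.1% of all 79 members. The comparison was picked from 8 motifs in 4 lists after the values were seen, and in Ndufb7 and Ndufs7 the peak lay at the far end of the gene, away from the promoter. The promoters of these 9 members had a median of 15.0 CG dinucleotides, against 21.0 for the 43 members with a day 6 gene-end peak. Over all genes the medians were 14.0 and 24.0, so the gap is not particular to the members.

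Ndufb4, a complex I accessory subunit, has the related genes Ndufb4b (471 bp) and Ndufb4c (485 bp). Ndufb4 had peaks at day 3 and day 6, and neither relative had a peak within 10 kb in any list. How reads from near-identical sequence were treated is not given in the sources used here.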
